A study of Drosophila melanogaster with 3 samples.

Results

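The dynein heavy chain genes described here are the cytoplasmic chain Dhc64C (CG7507), the ciliary chain btv (beethoven, CG15148) and the axonemal chains Dhc16F (CG7092), Dhc36C (CG5526), Dhc62B (CG15804), Dhc93AB (CG3723) and Dhc98D (CG1842). They were taken by name, as all non-control probes whose systematic name holds the locus tag of one of these 7 genes, which gave 11 of the 32162 probes on each array and 7 of the 12994 genes with a probe. Dynein heavy chains are the motor subunits of the dyneins, the motors that walk toward the minus ends of microtubules. Cytoplasmic dyneins move cargo inside the cell and along cilia, whereas axonemal dyneins sit in rows on the outer doublets of motile cilia and flagella and make them bend. In Drosophila the motile axonemes are found in the sperm tail and in the ciliated dendrites of chordotonal neurons, the stretch receptors of the body wall and joints, and genes for sperm axonemes are transcribed in primary spermatocytes.

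Signals were measured in RNA from the apical tip of the testis, from male thorax and from female thorax of wild-type OreR flies, with 4 arrays hybridized for each tissue. Testes came from males 2 to 4 days old, and tips were dissected out of their sheath; thoraxes of adults were freed of head, abdomen, legs and wings, and the methods describe the flies as mated adults of a wider age range. The tip is described there as a source of premeiotic germline, and it also holds the hub and cyst cells of the soma. Each array carried RNA pooled from many flies, and the 4 arrays of a tissue are independent pools of RNA, so the spread between arrays is one between pools and not between single flies. All values below are log2 signals minus the 75th percentile of the same array (scaled signals), so that 0 marks the 75th percentile of an array, and only the tissues are compared, never one probe with another. Array numbers follow slide and position. Slide A holds male thorax 1 and 2 and female thorax 1 and 2, slide B testis tip 1 and 2 and male thorax 3 and 4, and slide C testis tip 3 and 4 and female thorax 3 and 4.

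The 12 arrays differed in quality. The software called between 57.3% and 74.8% of probes well above background on a testis tip array, and between 64.3% and 74.4% on a thorax array. Testis tip 1 stood apart: its unscaled signals correlated with those of the other testis tip arrays at r of 0.809 to 0.812, against 0.991 to 0.996 among those 3, and on it 21.7% of the 15367 probes that were bright on the other testis tip arrays were lower by more than 3 on the log2 scale. For the heavy chains described here, values that rest on this array are given with and without it. The labels were checked against marker genes. All 9 spermatocyte markers and all 7 late spermatid markers, and 5 to 6 of the 6 hub and cyst markers, were well above background on each testis tip array, and all 8 muscle markers on each thorax array. Spermatocyte markers were also well above background for 4 to 9 genes on a male thorax array (9 on male thorax 3) and 5 to 9 on a female thorax array (9 on female thorax 4), and hub and cyst markers for 3 to 5 genes in either. The part of such signal in the comparisons was not tested. Of 4 germline markers, 3 to 4 were well above background on a testis tip array and 1 to 3 on an array of either thorax. Over male thorax, 8 of 9 spermatocyte and 7 of 7 late spermatid markers were called higher in the testis tip (calls are defined below). So were 3 of 4 germline and 2 of 6 hub and cyst markers, against 37.5% of all genes. A marker bright in the testis tip alone passes the filter on low signals, given below, only because it is high there. These counts of calls therefore describe the markers that passed and are no test of the labels. Fas3 of the hub was called lower (-1.25), and the germline gene zpg (-0.13) and the spermatocyte gene bol (-1.37) were not called. Signals of zpg and bol varied widely between testis tip arrays (SD of 3.33 and 1.84), and zpg was well above background on 3 of 4. Neither change is given without testis tip 1, so they do not show equal levels in the tissues. The muscle markers averaged between -4.64 and -3.68 on testis tip arrays, against 5.09 to 6.02 in male and 4.94 to 6.46 in female thorax, but 6 to 7 of them were still well above background in the tip. Late spermatid markers were well above background for 2 to 7 genes on a male thorax array and 1 to 6 on a female thorax array, and their mean was highest on male thorax 3, at -1.50, against -6.31 to -3.91 on the other male thorax arrays.

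A call means an adjusted p under 0.05 in limma after Benjamini-Hochberg adjustment over 24878 probes, those left after removing probes with an unscaled mean below log2 7 in all 3 tissues. Of the 11 heavy chain probes, 8 passed, at least 1 for each of the 7 genes. Those of Dhc16F, Dhc36C, Dhc62B and Dhc98D passed through the testis tip alone and that of Dhc93AB through male thorax alone, so the counts and medians of the 8 are a description. The 3 that did not are the probes named for the RB transcript of Dhc64C. In testis tip over male thorax, 5 heavy chain probes of 4 genes were called higher and 1 was called lower, where 29.3% of all probes tested were called higher and 47.2% lower (76.5% either way). In testis tip over female thorax, 4 probes of 4 genes were called higher and 1 lower, where 28.8% of all probes were called higher and 47.4% lower (76.3% either way). The median change of the 8 heavy chain probes was 4.19 over male and 3.54 over female thorax, against -1.05 over all probes in either comparison. Both comparisons use the same testis tip arrays and are therefore shown side by side only. The all-probe shift of -1.05 depends on the scaling. It was 1.29 over male and 1.60 over female thorax without scaling, and -0.36 and -0.42 after quantile normalization.

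**Figure D1:**
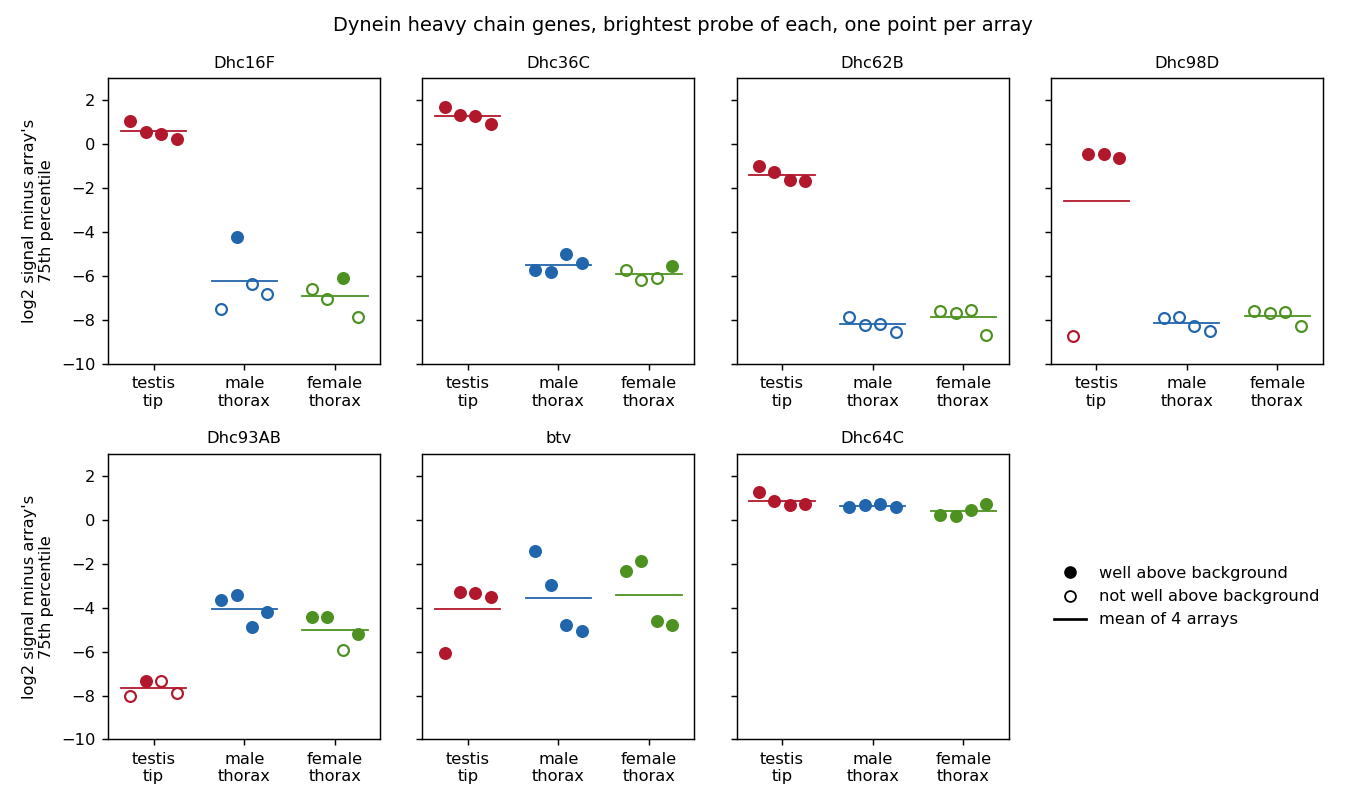
Scaled log2 signal (vertical axis, log2 units relative to the 75th percentile of the array) of the brightest probe of each dynein heavy chain gene on 12 arrays, 4 for each of testis tip, male thorax and female thorax; filled points are well above background, open points are not, and lines are means. Dhc16F, Dhc36C and Dhc62B sit far above both thoraxes on all 4 testis tip arrays, Dhc98D on 3 of 4, Dhc93AB below, and Dhc64C at overlapping values.

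Dhc36C, an inner-arm axonemal chain whose gene is on chromosome arm 2L, was among the clearest differences. Its scaled signal was 1.69, 1.33, 1.29 and 0.93 on testis tip arrays 1 to 4. It was -5.71, -5.84, -5.01 and -5.40 in male thorax and -5.75, -6.20, -6.09 and -5.56 in female thorax. The lowest testis tip array was thus far above the highest thorax array, and the spread within each tissue was small (SD of 0.31, 0.37 and 0.30, n = 4 each). The log2 change was 6.80 ± 0.26 (SE) over male thorax, a 111-fold difference with an adjusted p of 1.38e-09, and 7.21 ± 0.26 over female thorax with an adjusted p of 9.73e-10, for which no fold is given because 3 of the 4 female thorax arrays were not well above background. The probe was well above background on all testis tip arrays, on all 4 male thorax arrays and on 1 of 4 female thorax arrays, at intensities of 26700 to 41900 units in the testis tip, against 54.5 to 58.5 units in male and 19.5 to 51.0 units in female thorax.

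Dhc16F, a further inner-arm axonemal chain and the only one of the 7 genes on the X chromosome, had a scaled signal of 1.07, 0.54, 0.47 and 0.26 in the testis tip. In male thorax it was -7.50, -4.24, -6.36 and -6.83, and in female thorax -6.60, -7.06, -6.08 and -7.86. Tip and thorax arrays did not overlap. Among thorax arrays only male thorax 2 and female thorax 3 were well above background, and male thorax 2 was the highest of the 8. The log2 change was 6.82 ± 0.62 over male thorax (adjusted p of 1.09e-06) and 7.48 ± 0.62 over female thorax (adjusted p of 4.78e-07), and no fold is given because the probe was measured above background on 1 of 4 arrays in either thorax.

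Dhc62B, an inner-arm axonemal chain encoded on 3L, was at -1.01, -1.25, -1.64 and -1.69 in the testis tip. It ranged from -8.56 to -7.86 in male and from -8.71 to -7.57 in female thorax, and no thorax array was well above background. The thorax values are therefore only an upper limit, and the difference is given as a bound: the mean of the bright tissue against, on each array of the dim tissue, the higher of the probe's own signal and the lowest signal that the software called well above background. By that bound Dhc62B was at least 42.8-fold higher in the testis tip than in male thorax and at least 33.7-fold higher than in female thorax. This bound, like those given below, holds for the software's own background correction only. The fitted log2 changes were 6.81 ± 0.31 (adjusted p of 3.77e-09) and 6.49 ± 0.31 (adjusted p of 5.32e-09).

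These 3 chains kept their direction and their call when the arrays were not scaled, when they were quantile normalized, and when slide was a block. Without scaling the changes over male thorax were larger, at 9.14 for Dhc36C, 9.16 for Dhc16F and 9.15 for Dhc62B. The fold given for Dhc36C therefore holds for the scaled signals only. Without testis tip 1 the changes over male thorax were 6.67 for Dhc36C, 6.65 for Dhc16F and 6.68 for Dhc62B. On the slide that testis tip shares with male thorax they were 6.72, 7.40 and 7.24, each with an adjusted p of 0.00784, and on the slide that it shares with female thorax they were 6.93, 7.34 and 6.48. On that slide the adjusted p values over female thorax were 4.80e-05 for Dhc36C, 0.000606 for Dhc16F and 0.000224 for Dhc62B. With a normexp background in place of the software's own correction all 3 stayed called, at smaller changes of 5.50, 4.89 and 3.58 over male and 4.76, 4.24 and 2.56 over female thorax. For Dhc62B these changes were smaller than its bounds above, which are 5.4 over male and 5.1 over female thorax on the log2 scale.

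**Figure D2:**
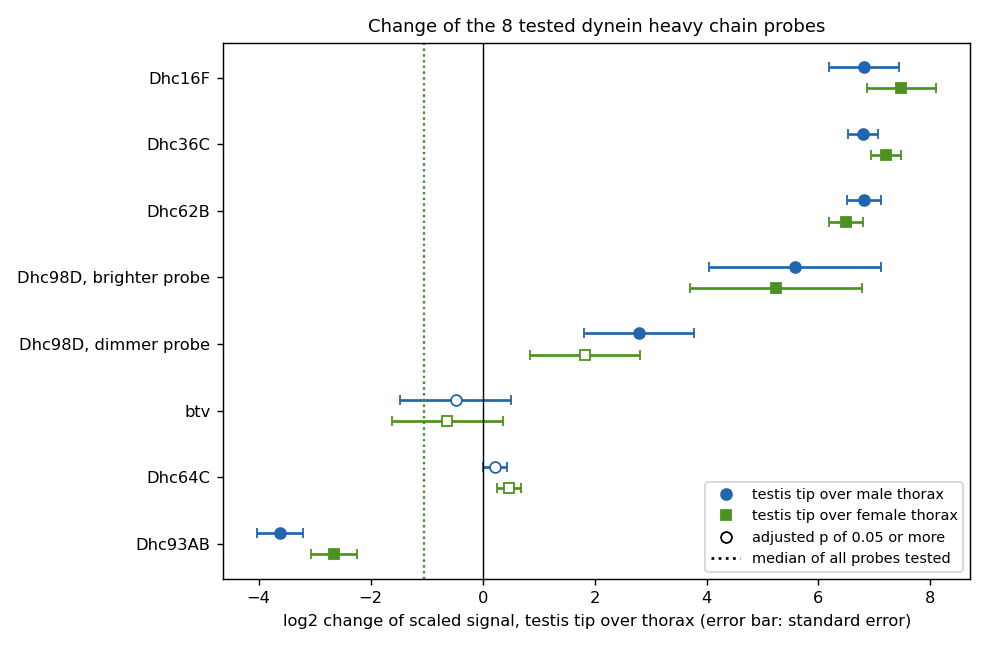
Log2 change of the scaled signal of the 8 tested dynein heavy chain probes in testis tip over male thorax (circles) and over female thorax (squares), with the standard error as bars and open symbols where the adjusted p is 0.05 or more; the dotted lines mark the median change of all probes tested, -1.05. Dhc16F, Dhc36C, Dhc62B and Dhc98D lie to the right in both comparisons (the dimmer Dhc98D probe with an open symbol over female thorax), Dhc93AB lies to the left, and btv and Dhc64C lie near 0.

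The axonemal chain Dhc98D, encoded on 3R, was measured by 2 probes, and both showed how far testis tip 1 differed from the other arrays. Its brighter probe (A_09_P029946) read -8.75 on testis tip 1, against -0.45, -0.44 and -0.62 on testis tip 2 to 4. In male thorax it was between -8.52 and -7.87 and in female thorax between -8.29 and -7.62, not well above background on any thorax array or on testis tip 1. So 3 of the 4 testis tip arrays were far above all thorax arrays, and 1 was below every one of them. The log2 change was 5.59 ± 1.54 over male thorax (adjusted p of 0.00597, at least 19.0-fold) and 5.24 ± 1.54 over female thorax (adjusted p of 0.00863, at least 15.0-fold). Without testis tip 1 it was 7.65 (adjusted p of 2.49e-10) and 7.30 (adjusted p of 3.44e-10).

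The dimmer Dhc98D probe (A_09_P167905) was also low on testis tip 1, at -8.65 against -4.35, -4.15 and -4.53 on the other 3 testis tip arrays. Its range was -8.57 to -7.88 in male thorax, and the software called it above background on none of those arrays. In female thorax it read -5.17, -7.57, -7.59 and -8.66, and only female thorax 1 was well above background. This probe was called higher over male thorax, at 2.80 ± 0.98 (adjusted p of 0.0218, at least 2.63-fold), and was not called over female thorax, at 1.83 ± 0.98 (adjusted p of 0.111). Without testis tip 1 its changes were 3.88 (adjusted p of 0.000208) and 2.90 (adjusted p of 0.0016), and without female thorax 1 its change over female thorax was 2.52 (adjusted p of 0.0347). The call over male thorax was lost when any one of testis tip 2, 3 or 4 was left out (adjusted p of 0.0609, 0.0629 and 0.0576).

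On slide B, where testis tip 1 and 2 meet male thorax 3 and 4, the changes of both Dhc98D probes were 3.81 and 1.90 and neither was called (adjusted p of 0.348 and 0.387). On slide C, where testis tip 3 and 4 meet female thorax 3 and 4, they were 7.43 and 3.79 and both were called (adjusted p of 4.47e-05 and 0.00126). With slide as a block the changes were 5.10 and 3.09 over male thorax (adjusted p of 0.0246 and 0.0351) and 6.14 and 2.60 over female thorax (adjusted p of 0.0103 and 0.0662). With a normexp background neither probe was called in either comparison, at 2.94 and 0.16 over male thorax and 1.87 and -1.13 over female thorax.

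**Figure D3:**
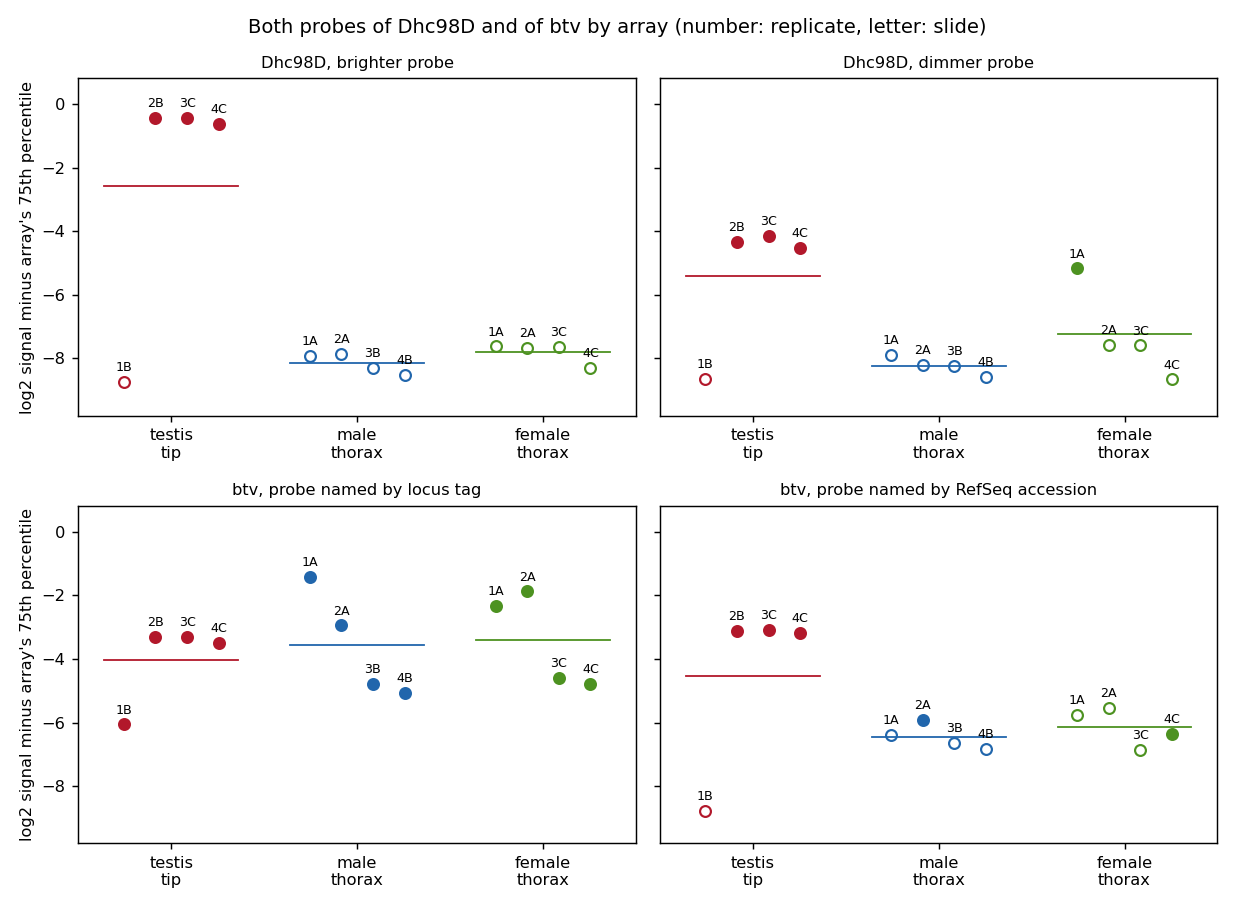
Scaled log2 signal (vertical axis, log2 units relative to the 75th percentile of the array) of both Dhc98D probes and both btv probes on each array, labelled by replicate number and slide letter, with means as lines and open points where a probe is not well above background. Testis tip 1 on slide B lies below the other 3 testis tip arrays in all 4 panels, and the btv probe named by locus tag is higher on slide A than on slides B and C in both thoraxes.

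Dhc93AB, an outer-arm axonemal chain encoded on 3R, was the only heavy chain called lower in the testis tip. Its scaled signal was -8.03, -7.36, -7.35 and -7.90 in the testis tip. It was -3.64, -3.42, -4.90 and -4.19 in male thorax and -4.44, -4.44, -5.91 and -5.19 in female thorax. The testis tip arrays lay below all thorax arrays, and the probe was well above background on 1 of 4 testis tip, 4 of 4 male and 3 of 4 female thorax arrays. The log2 change was -3.62 ± 0.41 over male thorax (adjusted p of 7.34e-06) and -2.66 ± 0.41 over female thorax (adjusted p of 0.000101), both against testis tip signals that are mostly near background, so that their size is not given as a fold. This direction held under every scaling tried over male thorax, with -1.28 (adjusted p of 0.0362) without scaling, but over female thorax the unscaled change was -0.01 (adjusted p of 0.986) and the authors' table of unscaled log2 values gave 0.16. Intensities were 49.9 to 81.8 units in the testis tip, 62.3 to 314 units in male thorax and 36.6 to 111 units in female thorax, so that the unscaled values of the tissues overlapped. On the shared slides the scaled changes were -3.15 over male thorax (adjusted p of 0.0268) and -2.07 over female thorax (adjusted p of 0.00482).

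Genes listed as markers of chordotonal neurons moved with Dhc93AB in part, and whether they mark these neurons alone was not tested. Over male thorax, 3 of 4 tested genes of this list were called lower and 1 higher, against 41.2% and 37.5% of all genes. Of 6 general neuron markers, 4 were called lower and 1 higher. The mechanotransduction channel nompC was lower in the testis tip than in male thorax (fitted change of -4.44 ± 0.38, SE, adjusted p of 6.65e-07), and so was nompA, a protein of the sensory dendritic cap (-6.85 ± 0.39, adjusted p of 1.94e-08). In the testis tip nompC was well above background on 0 of 4 arrays and nompA on 1 of 4, so the sizes of both changes are not set against each other. Rfx, a ciliary transcription factor, was also lower (-1.28 ± 0.23, adjusted p of 0.000287), whereas the transition-zone gene dila was higher in the testis tip (6.55 ± 0.32, adjusted p of 7.25e-09). The Rfx change lay close to the all-probe shift of -1.05, and its direction turned without scaling. Of the 5 markers in the list with a probe, 2 to 3 were well above background on a testis tip array, 3 to 5 on a male and 3 to 4 on a female thorax array. The channel gene iav was so on 0 of 4 testis tip, 1 of 4 male thorax and 0 of 4 female thorax arrays, and was not tested. Summed intensities of the list, which dila dominates in the tip, were 20100 to 58700 units in the testis tip, 2420 to 3510 units in male and 1320 to 3030 units in female thorax. Fewer cells of a type and less RNA per cell cannot be told apart in such bulk samples, and the part of these cells in the Dhc93AB difference was not tested.

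The ciliary chain btv, the heavy chain of the cytoplasmic dynein that carries retrograde intraflagellar transport, was well above background on all 12 arrays. Its scaled signal was -6.06, -3.30, -3.31 and -3.49 in the testis tip. In male thorax it was -1.42, -2.95, -4.79 and -5.08, and in female thorax -2.33, -1.88, -4.60 and -4.80. The tissues overlapped widely, and the thorax arrays of slide A were higher than those of the other slide in both sexes, by 2.75 in males and 2.60 in females on average. A gap of 2 or more between the slides of a thorax was seen for 6.36% of all tested probes in males and 5.20% in females. Values of the 2 slides did not overlap for 65.9% of all tested probes in males and 71.8% in females. A difference between slides is thus not particular to btv. The log2 change was -0.48 ± 0.99 over male thorax (adjusted p of 0.674) and -0.63 ± 0.99 over female thorax (adjusted p of 0.576), and neither was called. Its sign was not stable: it was positive over both thoraxes without scaling (1.86 and 2.02), after quantile normalization (0.88 and 0.54), on the shared slides (0.25 and 1.30), with slide as a block (0.63 and 0.93) and without testis tip 1 (0.19 and 0.04). Only on slide C was the change called (adjusted p of 0.0013).

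A second btv probe carries a RefSeq accession in place of the locus tag and is not one of the 11. It read -8.79, -3.11, -3.10 and -3.19 in the testis tip, between -6.84 and -5.92 in male thorax and between -6.86 and -5.54 in female thorax. Here testis tip 2 to 4 were above all thorax arrays and testis tip 1 below all of them. The change was 1.91 ± 1.09 over male thorax (adjusted p of 0.131) and 1.58 ± 1.09 over female thorax (adjusted p of 0.207). Without testis tip 1 it was 3.32 (adjusted p of 2.62e-06) and 2.99 (adjusted p of 6.17e-06). The 2 probes of btv thus differed in the tissues they set apart, and this probe was added after its values were seen.

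Dhc64C, the heavy chain of the general cytoplasmic dynein, was well above background on all 12 arrays, and its RA probe lay above the 75th percentile of each. It read 1.26, 0.85, 0.66 and 0.72 in the testis tip. It was 0.59, 0.69, 0.74 and 0.59 in male thorax and 0.21, 0.18, 0.45 and 0.75 in female thorax. The tissues overlapped. The change was 0.22 ± 0.22 over male thorax (adjusted p of 0.369) and 0.47 ± 0.22 over female thorax (adjusted p of 0.064), neither of them called. Whether they were called depended on the scaling. Without scaling the changes were 2.56 (adjusted p of 1.90e-05) and 3.13 (adjusted p of 3.14e-06), and after quantile normalization they were -0.03 and 0.25 (adjusted p of 0.893 and 0.258). With the percentile taken over probes well above background on all 12 arrays, both changes were called, at 0.47 (adjusted p of 0.0183) and 0.78 (adjusted p of 0.000931). Over female thorax the change was also called without female thorax 4, at 0.59 (adjusted p of 0.0353).

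The 3 probes named for the RB transcript of Dhc64C gave little signal. One was well above background on 1 testis tip array and no thorax array, and one on no array at all. The third was well above background on 2 testis tip, 3 male thorax and 2 female thorax arrays. It was at -1.07 on female thorax 1, where all other arrays lay between -8.60 and -4.89. These probes were not tested.

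Between male and female thorax none of the 8 heavy chain probes was called by limma (0 higher and 0 lower in male over female thorax, where 0.153% of all probes were called higher and 0.37% lower, 0.523% in all). At an unadjusted p under 0.05, 1 of the 8 passed, against 1896 of all 24878 probes. That one was Dhc93AB, at 0.96 ± 0.41 in male over female thorax (adjusted p of 0.62). The other changes were 0.67 ± 0.62 for Dhc16F, 0.41 ± 0.26 for Dhc36C, -0.32 ± 0.31 for Dhc62B, -0.34 ± 1.54 and -0.98 ± 0.98 for the 2 Dhc98D probes, -0.15 ± 0.99 for btv and 0.25 ± 0.22 for Dhc64C. With array weights estimated by limma, Dhc64C at 0.42 (adjusted p of 0.0136) and Dhc93AB at 0.97 (adjusted p of 0.0232) were called higher and the dimmer Dhc98D probe at -2.01 (adjusted p of 0.0244) lower in male than in female thorax.

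Outside these 7 genes the annotation names 6 further dynein heavy chains with a probe, which have 13 probes, 10 of them tested. In testis tip over male thorax 9 of the 10 were called higher and 0 lower, and the same counts were found over female thorax. All 10 passed the filter on low signals through the testis tip alone, so the count describes the probes that passed and no more. The 3 that did not pass, for CG3339, Dnah3 and kl-2, had lower scaled means in the testis tip, by differences of -0.65, -0.54 and -0.44 to male and -0.43, -0.70 and -0.86 to female thorax. Without scaling the direction turned, with 1.696, 1.805 and 1.906 to male and 2.222, 1.952 and 1.794 to female thorax. These Dnah3 and kl-2 probes were well above background on no array. The CG3339 probe was so on 3 of 4 testis tip arrays and on 1 of 4 in either thorax. The Y-linked chains kl-5, kl-3 and kl-2, which are needed for male fertility and belong to the sperm axoneme, were all represented among the 9 probes called higher. The kl-5 probe was at -0.52, 0.27, 0.15 and 0.12 in the testis tip, -7.94, -8.28, -7.41 and -6.27 in male thorax and -6.99, -7.73, -7.66 and -7.96 in female thorax. Only male thorax 4 among the thorax arrays was well above background, and the changes were 7.48 ± 0.42 over male thorax (adjusted p of 1.76e-08) and 7.59 ± 0.42 over female thorax (adjusted p of 1.51e-08, at least 88.9-fold). Females carry no Y chromosome, and none of their arrays was well above background for a kl-2, kl-3 or kl-5 probe. In male thorax, too, no array was well above background for a kl-2 or kl-3 probe, and only male thorax 4 for the kl-5 probe given above.

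The brightest kl-3 probe was at least 8.92-fold higher in the testis tip than in male thorax (4.01 ± 0.39, adjusted p of 1.95e-06) and at least 7.03-fold higher than in female thorax (3.99 ± 0.39, adjusted p of 2.05e-06). The tested kl-2 probe was at least 2.00-fold higher than in male thorax (2.18 ± 0.46, adjusted p of 0.001) and at least 1.67-fold higher than in female thorax (2.31 ± 0.46, adjusted p of 0.00067). The brightest probe of Dnah3 gave 5.57 ± 1.53 over male thorax (adjusted p of 0.00601), but testis tip 1 read -8.65 against -0.31, -0.41 and -0.70 on the other testis tip arrays, and without it the change was 7.62 (adjusted p of 1.83e-09). Dhc1 was not called, at -1.13 ± 1.25 over male thorax (adjusted p of 0.427) and -0.75 ± 1.25 over female thorax (adjusted p of 0.603), with a sign that turned without scaling (1.21 and 1.91) and after quantile normalization (0.24 and 0.26). CG3339 was not tested, and its scaled signal was between -8.64 and -6.66 in the testis tip, -7.41 and -5.53 in male thorax and -7.61 and -5.72 in female thorax. Testis tip 1 was lower than the mean of the other 3 testis tip arrays by over 5 for 2 of the 4 kl-3 probes (-5.10 and -5.37) and 1 of the 2 kl-5 probes (-6.07). With a normexp background, 1 of the 5 genes tested was called higher over either thorax by its brightest probe and Dhc1 was called lower over female thorax (-2.58, adjusted p of 0.00852). In that setting kl-2 and kl-3 were not called in either comparison (0.02 and 1.18 over male thorax, -0.96 and 0.19 over female thorax).

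**Figure D4:**
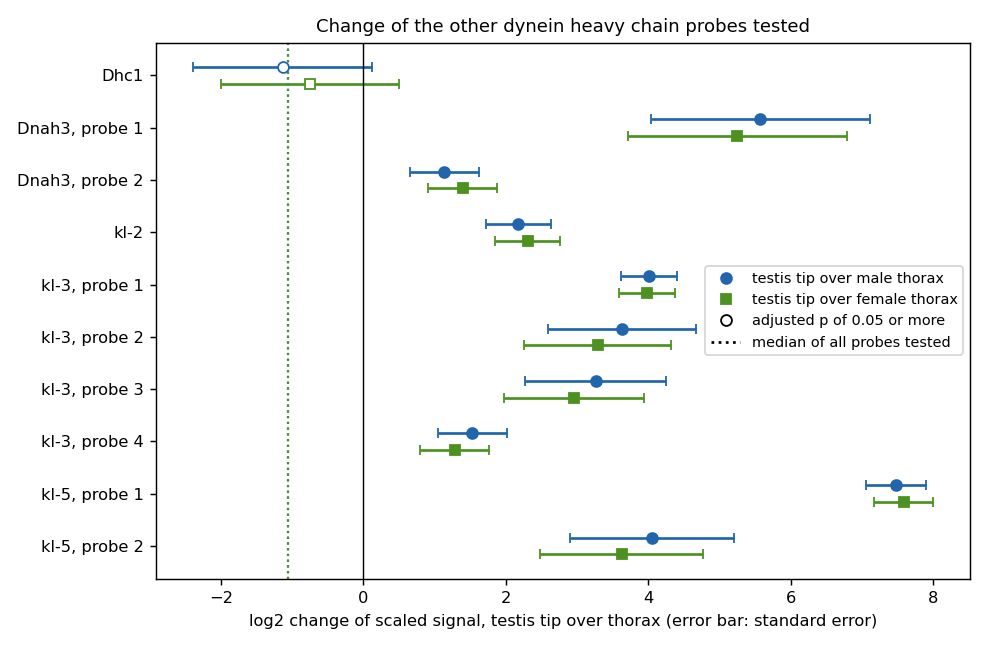
Log2 change of the scaled signal for the 10 tested probes of 5 other dynein heavy chain genes in testis tip over male thorax (circles) and over female thorax (squares), with standard errors as bars, open symbols where the adjusted p is 0.05 or more and dotted lines at the median of all probes tested; probes of a gene are numbered from the brightest in the testis tip. All but Dhc1 lie to the right of 0 in both comparisons.

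Genes that act with the heavy chains were counted by the brightest probe of each. Over the 11992 genes tested in this way, 37.5% were called higher and 41.2% lower in testis tip over male thorax, and 36.6% higher and 41.6% lower over female thorax. The partners and assembly factors of axonemal dyneins, among them intermediate and light chains and the chaperones that build the arms, were 14 tested genes of 18 listed, and these 14 were called higher in the testis tip in both comparisons. A gene that is bright in the testis tip alone passes the filter on low signals only because it is high there, so this count describes the genes that passed and supports nothing about the list. One more listed gene had a probe but did not pass: Dnai2, an intermediate chain, averaged -7.40 in the testis tip, against -5.42 in male and -5.21 in female thorax, and without the filter 14 of 15 were called higher and 1 lower in both comparisons. Named by the size of the fitted change over male thorax were robl62A, a light chain of the roadblock family (9.65 ± 0.87, adjusted p of 9.80e-07), and the assembly factor Dnaaf3 (9.24 ± 0.63, adjusted p of 8.65e-08). In male thorax robl62A was well above background on 2 of 4 arrays and Dnaaf3 on 1 of 4, and in female thorax both on 0 of 4, so the size of these changes rests on signals mostly near background. All 14 stayed called without scaling, after quantile normalization and without testis tip 1. On the slide shared with male thorax 12 did, and with a normexp background 13 over male and 12 over female thorax.

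Of the subunits of cytoplasmic dynein, 1 of 5 tested genes was called higher and 2 lower over male thorax, and 1 higher and 3 lower over female thorax, counts too small to set against the shares over all genes. Cdlc2, a light chain whose probe was not tested for signal from the closely related gene ctp, was higher by 7.26 ± 0.37 (adjusted p of 9.10e-09), and the light intermediate chain Dlic was lower (-2.95 ± 0.33, adjusted p of 6.03e-06), as was the light chain robl (-1.02 ± 0.30, adjusted p of 0.00866). After quantile normalization 3 of the 5 were called higher and 1 lower in either comparison. Without scaling 4 were called higher and 0 lower, with Dlic at -0.61 (adjusted p of 0.183) and robl at 1.32 (adjusted p of 0.006) over male thorax.

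For dynactin and the adaptors of dynein, 1 of 14 genes was called higher and 7 lower in both comparisons. Spindly, which recruits dynein to kinetochores, was higher (4.60 ± 0.36, adjusted p of 2.79e-07 over male thorax). The dynein regulator nudE was lower (-4.23 ± 0.37, adjusted p of 7.78e-07), and so was the p150 subunit of dynactin, DCTN1-p150 (-2.81 ± 0.33, adjusted p of 1.06e-05). Without scaling 8 were called higher and 1 lower in both comparisons, nudE at -1.89 (adjusted p of 0.0012) and DCTN1-p150 at -0.47 (adjusted p of 0.303) over male thorax, and on the slide shared with male thorax 1 was called lower.

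Of 12 genes of intraflagellar transport, the cargo train that btv moves, 9 were tested, with 2 called higher and 1 lower over male thorax, and 4 higher and 1 lower over female thorax. Without scaling these counts were 8 higher and 0 lower in both comparisons, and without the filter on low signals 12 genes were tested, with 2 higher and 3 lower over male thorax and 4 higher and 4 lower over female thorax. Oseg1 (3.46 ± 0.32, adjusted p of 1.10e-06 over male thorax) and IFT43 (1.65 ± 0.29, adjusted p of 0.000285) were higher, both encoding parts of the complex that serves retrograde transport. IFT57, of the complex that serves anterograde transport, was lower at -2.35 ± 0.71 (adjusted p of 0.0105), and this call was lost without scaling (-0.01, adjusted p of 0.991) and after quantile normalization (-1.04, adjusted p of 0.0988). Without testis tip 1, 6 of the 9 were called higher over male thorax and 6 over female thorax. In that setting IFT57 was at -1.54 over male thorax (adjusted p of 0.00557) and was not called over female thorax (-0.94, adjusted p of 0.0572).

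**Figure D5:**
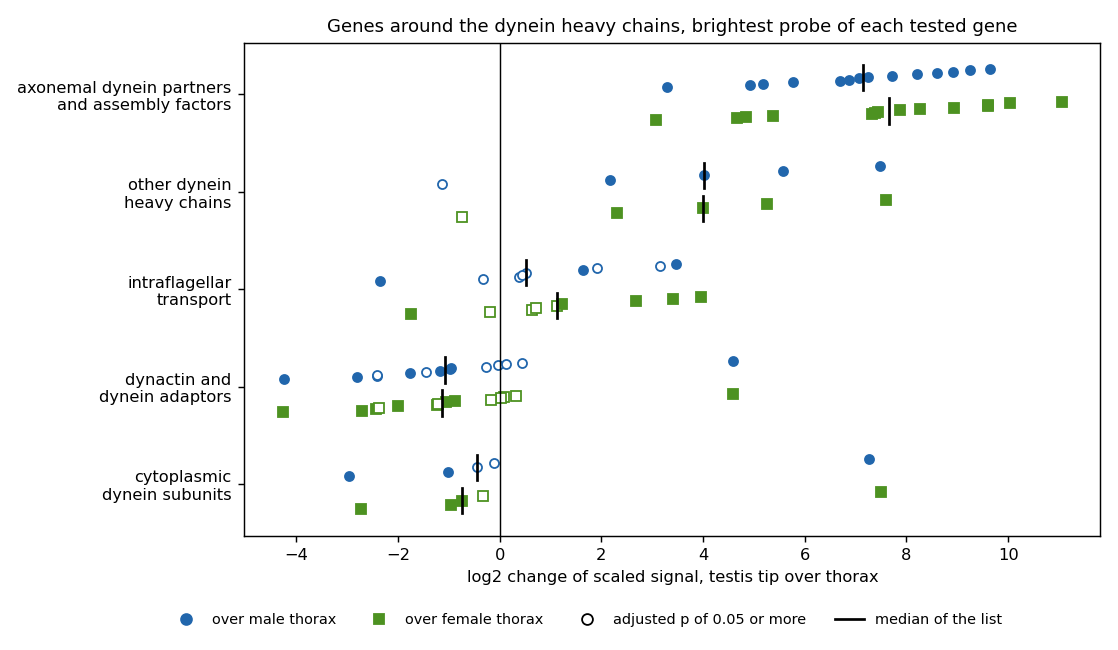
Log2 change of the scaled signal (horizontal axis) of each tested gene in 5 lists around the dynein heavy chains, in testis tip over male thorax (circles, upper row of each list) and over female thorax (squares, lower row), with open symbols where the adjusted p is 0.05 or more and a black bar at the median of the list. All 14 axonemal partners and assembly factors lie to the right, and the medians of the cytoplasmic dynein and dynactin lists are -0.45 and -1.08 over male thorax.

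The genes with patterns most like those of the chains were sought over all genes well above background on every array of at least 1 tissue, by Pearson's r of the scaled signals over 12 arrays, which are 3 tissues of 4 arrays and share tissue and slide. For Dhc62B they were Bro, CG34011 and sunn, each at r of 1.00 after rounding. Dhc36C was most like CG14864, nonA-l and Pof (r of 0.999, 0.999 and 0.998), and Dhc16F was most like Cpr31A, flz and Naa20B (r of 0.991, 0.987 and 0.987). The patterns nearest to Dhc93AB were those of CG11537, snsl and crb (r of 0.991, 0.988 and 0.986). For Dhc98D the nearest were a histone H2B gene, His2B:CG33868, whose copies are near-identical so that the value cannot be given to 1 copy, Inx5 and CG17005 (r of 0.995, 0.995 and 0.992), and in all 3 testis tip 1 was far below the mean of the other testis tip arrays (-5.93, -7.99 and -6.53). The likest to btv were sli, CG13561 and Spn42Db (r of 0.953, 0.946 and 0.945), and to Dhc64C mop, Dip-B and CG5112 (r of 0.956, 0.942 and 0.929). Among the chains themselves, Dhc16F, Dhc36C and Dhc62B ran together with r between 0.963 and 0.985, and Dhc93AB ran against them with r between -0.917 and -0.864. With the same 3 chains, r was 0.727 to 0.752 for Dhc98D, 0.567 to 0.652 for Dhc64C and -0.25 to -0.159 for btv.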

How the data were processed

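Single-color (Cy3) Agilent arrays were read. The intensities, as deposited, are Agilent Feature Extraction's background-subtracted signals per spot, in which a surrogate stands for values near or below 0 and arrays are not scaled to one another; per the file headers the version is 10.5.1.1, while the submitters' processing notes name 9.1. The authors also deposited log2 values per tissue, used here as an alternative with no test. Spots flagged non-uniform, population outlier or manual were left out (112 to 389 per array; none was saturated), spots of one probe were averaged, and log2 values were set relative to each array's 75th percentile. Probes with an unscaled mean below log2 7 in all 3 tissues were removed, as the methods do, and limma 3.58.1 (lmFit and eBayes, R 4.3.3) was fitted over all 12 arrays, with Benjamini-Hochberg adjustment over 24878 probes and no covariate. Tables and figures used Python 3.11.15, numpy 2.4.6, pandas 2.3.3 and matplotlib 3.10.9. The number of arrays limits the precision.

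RefSeq's Release 6 annotation named the gene of 18121 probes through the locus tag, of 1155 through a former locus tag and of 115 through an accession. The arrays are annotated on the earlier build BDGP5.4, so no coordinates are given, and only the chromosome arm was taken. Of a gene's probes, the one with the highest mean scaled signal stands for it, and all are given for the heavy chains. In the lists around them, each gene is counted, and up to 2 called genes at either end of the changes over male thorax are named, with all other heavy chains. For likeness the 3 genes with the highest r were named. The members, the gene lists and these rules were chosen with earlier results of these data known.

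Data were simulated for testis tip over male thorax, with 24442 probes, 200 of them changed. There limma recovered 39% of the changes of 2 and 85% of those of 4 on the log2 scale, and 6.77% of its calls were false. In the measured data 76.5% of probes were called in this comparison, a far larger share than was changed in the simulation. The simulated rates therefore cannot be carried over to the calls above. They were not tested for an array that stands apart or for differences between slides. Alternatives covered scaling, background, filter, probes, flagged spots, slide, weights for arrays, and leaving out arrays one by one. The mean spot signal is not a column of the files, so normexp (offset 50) used the median spot signal.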

Additional observations from a re-analysis of the deposited data

Results flagged for a closer look

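In 36 groups of 4 arrays (12 heavy chain probes, the second btv probe included, in 3 tissues), 8 had a lowest array whose gap to the next was, as a share of the group's range, above Dixon's critical value, where chance flags about 1 in 20 groups. Testis tip 1 accounts for 4 of them, at -8.75 for the brighter and -8.65 for the dimmer Dhc98D probe, and at -6.06 for the btv probe named by locus tag and -8.79 for the one named by RefSeq accession. The other testis tip arrays lay between -0.62 and -0.44, between -4.53 and -4.15, between -3.49 and -3.30 and between -3.19 and -3.10 for these probes. Of the remaining 4, all on female thorax 4, values were -8.65 and -8.88 for Dhc64C RB probes, -8.29 for the brighter Dhc98D probe and -8.71 for Dhc62B, on an array where none of these probes was well above background.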

How the results depend on the processing

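The count of 5 heavy chain probes called higher in testis tip over male thorax was 3 with a normexp background and 3 on the shared slide alone. Dhc64C was also called higher over male thorax without scaling (2.56, adjusted p of 1.90e-05) and with the percentile over probes well above background on all 12 arrays. The count of 1 probe called lower over male thorax was 2 without a filter on low signals. The count of 4 probes called higher over female thorax was 6 without scaling, with array weights and on the shared slide, and 3 with normexp. Requiring probes well above background on all 12 arrays leaves only Dhc64C and btv, so that 0 were called higher and 0 lower over male thorax, and 1 higher (Dhc64C) and 0 lower over female thorax. Without scaling 0 were called lower over female thorax. With array weights, 2 were called higher and 1 lower in male over female thorax. With each array left out in turn the counts stayed at 4 to 5 higher and 1 lower over either thorax and 0 between the thoraxes. No paired analysis was possible because array numbers follow slide and position and are not shared samples.

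In all, 48 of the recomputed values changed sign, 9 of them of changes that were called. Among the chains, without scaling the btv probe named by locus tag gave 1.86 over male and 2.02 over female thorax and 0.15 in male over female thorax. After quantile normalization that probe gave 0.88 and 0.54 and Dhc64C -0.031 over male thorax. On the shared slides btv gave 0.25 and 1.30, and with slide as a block 0.63, 0.93 and 0.30 in the 3 comparisons (random block 0.082, 0.156 and 0.074). In male over female thorax the second btv probe gave 0.55 and the brighter Dhc98D probe 1.04 with slide as a block, and 0.11 and 0.36 with a random one. With normexp the second btv probe gave -0.39 and the dimmer Dhc98D probe -1.13 over female thorax, and Dhc93AB -0.30, Dhc36C -0.75 and Dhc16F -0.66 in male over female thorax. The authors' table gave 0.16 for Dhc93AB over female thorax. With arrays left out in turn btv ranged from -0.99 to 0.23 over male thorax, from -1.10 to 0.04 over female thorax and from -0.87 to 0.35 between them.

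Outside the 7 genes, robl gave 1.32 over male and 1.71 over female thorax without scaling and in the authors' table, IFT57 0.90 over female thorax without scaling and 0.80 and 1.72 in the authors' table, and kl-2 -0.96 over female thorax with normexp. Dhc1 gave 1.21 and 1.91 without scaling, 0.24 and 0.26 after quantile normalization, 0.17 and 0.52 with slide as a block and 2.15 over female thorax on the shared slide, and ranged from -1.55 to 0.61 over female thorax with arrays left out. The causes were not tested. Of the other values for the 7 genes, 295 kept direction and side of the threshold under alternatives and 309 with an array left out, while 19 and 5 gained and 6 and 3 lost a call, and 14 values with no test moved by more than the spread between arrays. Signal near background limits Dhc62B, Dhc98D, Dhc93AB, Dhc16F and, in female thorax, Dhc36C, each of them well above background on no more than 1 of 4 arrays of a dim tissue.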
